A study of Mus musculus and Bos taurus with 2 samples.

Results

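The genes described here encode RNA polymerase II (Pol II), the general transcription factors that place it at promoters, and the Mediator complex that connects it with activators. They were chosen by gene name: symbols, read without regard to case, that begin Gtf2a to Gtf2h, Taf with a number or Med with a number, or that are Polr2a to Polr2m, with at least 1 transcript model on the strand of the gene (a sense model). The rule found 79 genes of 14090 named genes with a sense model in the mouse library and 77 of 13374 in the bovine library. The models were assembled from nanopore long-read cDNA of polyadenylated RNA. The mouse library came from late 2-cell embryos collected 36 h after in vitro fertilization, made from oocytes of superovulated Slc:ICR mice and cultured in KSOM medium. The bovine library came from embryos of 8 to 16 cells collected at 72 h, made by in vitro fertilization with semen of a Japanese Black bull; the oocyte donors were Japanese Black cows or F1 crosses of that breed with Holstein. Each library pooled about 200 embryos and was amplified with 14 PCR cycles, and both were labelled batch 1. There was 1 library per species, so no value below has a replicate error, no test between the species was made, and species, stage, hours and reference annotation cannot be told apart.

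Pol II transcribes the protein-coding genes. In the textbook order of assembly, TFIID, made of the TATA-binding protein and its associated factors (TAFs), binds the core promoter, TFIIA and TFIIB join, Pol II arrives with TFIIF, and TFIIE and TFIIH follow. Mediator bridges activators and this machinery through its head, middle and tail, and a separable kinase module with Cdk8 or Cdk19 restrains or tunes it. At both stages sampled here the embryo switches from stored maternal RNA to transcription of its own genome, which needs these complexes. Polyadenylated RNA of such an embryo holds maternal and newly made transcripts together, and these files do not separate them.

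In all, 42028 models (292540 exons) were assembled in mouse and 40819 (293209 exons) in bovine. The files give no read count per model, so the depth is unknown. A number of models is not an expression level, and the lack of a model does not show that a gene is silent. Of markers of other cells, 8 of 12 cumulus and granulosa genes and 4 of 10 sperm genes had a sense model in mouse, and 7 of 12 and 6 of 10 in bovine. Of the blood genes, whose list mixes names of both species, Cd74, Lyz2 and C1qa were found in mouse and HBA, HBB and PTPRC in bovine. Fshr, Lhcgr and Cyp11a1 were among the cumulus and granulosa genes found in mouse, and Has2, Ptx3, Vcan and Amh were not. In bovine PTX3, INHA, FSHR, LHCGR and AMH were not found. The part of such cells in the results below was not tested.

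Nearly every gene of the machinery had a sense model in both species, though a sense model may hold only part of a transcript. The share of all annotated genes with a sense model was not counted. Whether these genes were found more often than others was thus not tested. All 13 Pol II genes and all 13 general factor genes of the TFIIA, TFIIB, TFIIE, TFIIF and TFIIH lists had a sense model in each library. Of 23 genes named TAF, 22 were found in mouse and 22 in bovine. Of 30 Mediator genes, 30 were found in mouse and 29 in bovine. By symbol, 76 members were found in both libraries, beside 8466 symbols shared among the 14090 mouse and 13374 bovine named genes. Both counts depend on how the annotations name genes. Med8, a head subunit of Mediator, and Taf7l, a Taf7 paralog known from male germ cells, had models in mouse alone. TAF10, a subunit shared by TFIID and the SAGA coactivator, had models in bovine alone. The remaining mouse member, Med9os, is an antisense transcript beside Med9 that the rule takes in by its name. It had 1 model of 2 exons and 529 bp, encodes no Mediator subunit and is left out of the subunit counts.

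**Figure D1:**
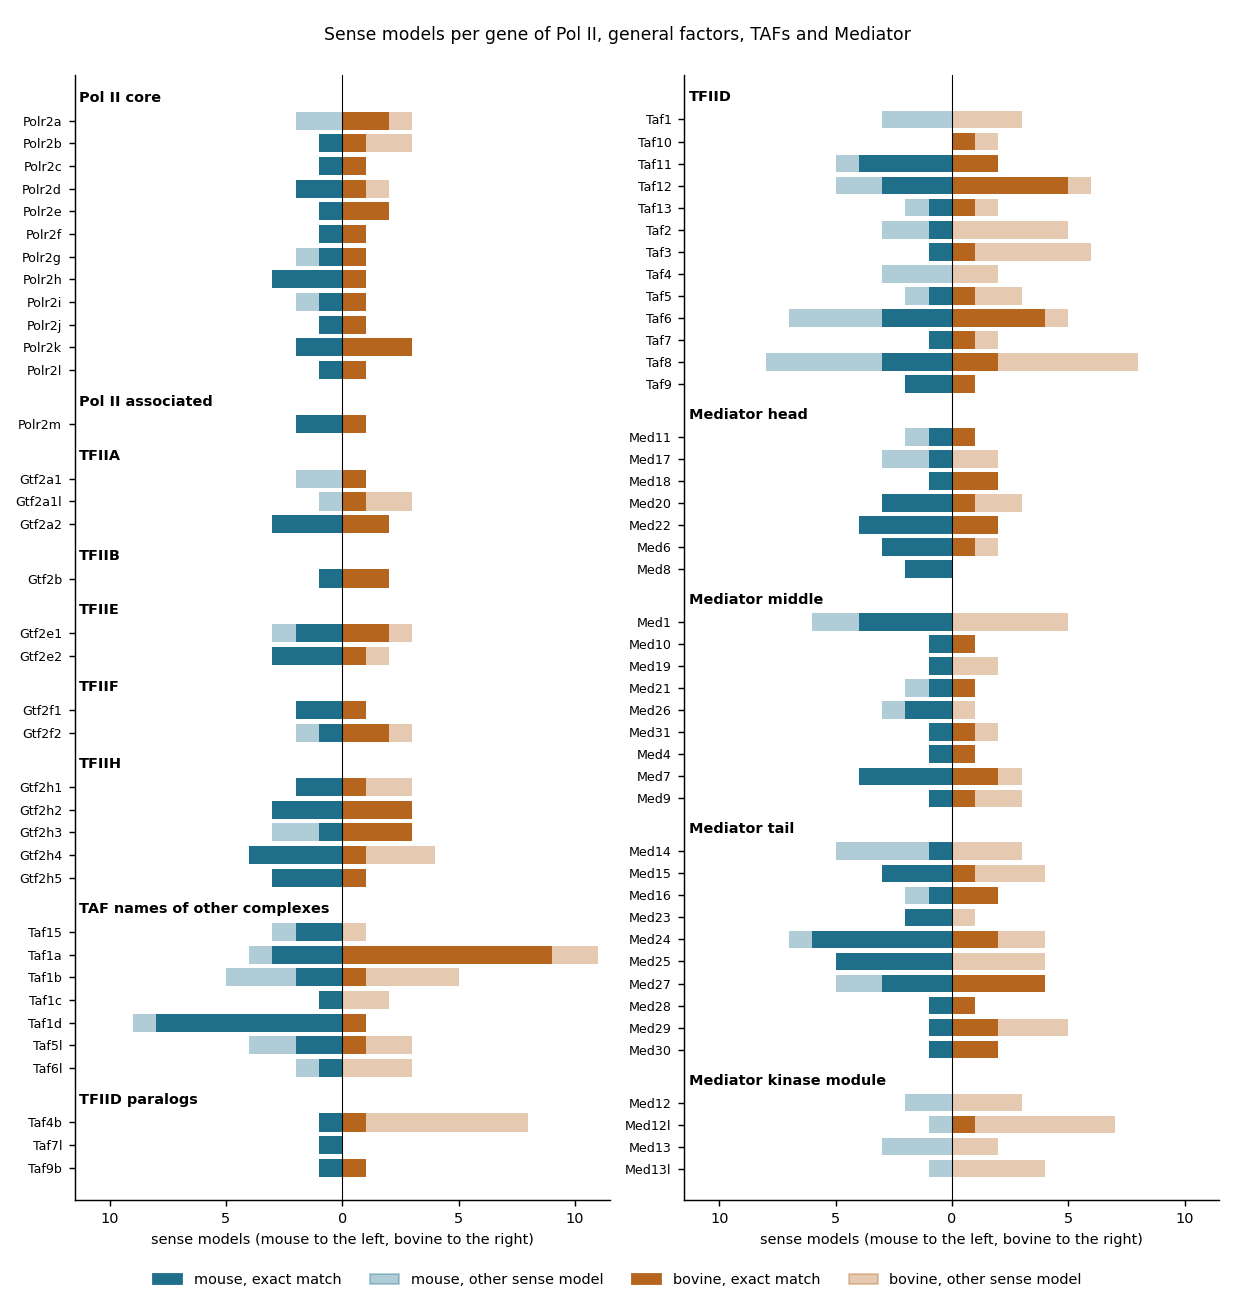
Sense models per gene, with mouse to the left of 0 and bovine to the right; full colour marks exact matches to a reference transcript and pale colour the other sense models. Taf1d reaches 9 models in mouse and Taf1a 11 in bovine, the Pol II subunits have 1 to 3, and the 4 kinase module genes show no full colour in mouse.

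A member had 2.58 sense models on average in mouse (204 models, median 2, at most 9) and 2.74 in bovine (211 models, median 2, at most 11). The averages over all named genes were 2.23 and 2.48, with a median of 2 in each. In mouse 11 of 79 members had 5 or more models, against a background of 9.96% of all named genes, and 26 had exactly 1, against 48.8%. In bovine 11 of 77 had 5 or more, against 13%, and 22 had exactly 1, against 42.1%. The share of members with many models was thus near the background in both libraries, while a member with exactly 1 model was less common than among all genes. The plot of sense models per gene shows how unevenly the models fell across the complexes.

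Pol II itself had the plainest models. Its 13 genes, counting Polr2m of an associated protein, had 21 models in mouse and 21 in bovine, an average of 1.62 in each. In each library 17 of the 21 were exact matches. The 12 core genes alone had 19 models in mouse, 15 of them exact, and 20 in bovine, 16 of them exact. An exact match is a model whose chain of introns equals that of a reference transcript. Polr2b, the second largest subunit, was assembled in full in mouse as an exact match of 25 exons and 3812 bp. In bovine POLR2B had an exact match of 25 exons and 3798 bp, and another model that began 609 bp upstream of it. Polr2e, Polr2f, Polr2h, Polr2k and Polr2l, which are also subunits of Pol I and Pol III, had 1, 1, 3, 2 and 1 models in mouse and 2, 1, 1, 3 and 1 in bovine, all of them exact matches. Every Pol II subunit with an exact match in both species had the same largest number of exons in mouse and cattle, from 2 in Polr2l to 25 in Polr2b.

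Polr2a was the exception. It encodes the largest subunit, which carries the catalytic centre and the repeated C-terminal domain. In mouse it had 2 models and no exact match. One spanned 13 exons and 2945 bp from 470 bp inside the outermost known start, and the other 14 exons and 3645 bp of the 3′ part. Between them they covered 86.2% of the 5910 bp of coding sequence, with the stop codon and without the start codon. The bovine library held 2 exact matches of POLR2A, of 30 exons and 6455 bp and of 29 exons and 6341 bp, so the full message was assembled there.

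Among the general factors, Gtf2b, which encodes TFIIB, had 1 exact match in mouse and 2 in bovine, each library reaching 7 exons. TFIIF, the partner of Pol II on its way to the promoter, had 4 models from Gtf2f1 and Gtf2f2 in each library. The 5 TFIIH core genes had 15 models in mouse, 13 of them exact, and 14 in bovine, 9 of them exact. Gtf2h4 had 4 exact matches in mouse, and GTF2H4 had 4 models with 1 exact match in bovine. Gtf2h3 had an exact match of 13 exons in both species, and in mouse also a model of 12 exons whose first exon of 91 bp lies in no annotated exon, 4.38 kb inside the gene.

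The TFIIA genes were the general factors with least complete mouse models. Gtf2a1, the precursor of the large TFIIA subunits, had no exact match in mouse, where a model of 8 exons and 2316 bp and a model of 1 exon and 2988 bp over the 3′ end together covered 97.3% of its coding sequence. In bovine GTF2A1 was an exact match of 9 exons and 5735 bp. Gtf2a1l, its germ cell paralog, had 1 mouse model of 7 exons and 2144 bp, which began 4.43 kb upstream of the outermost known start with a first exon of 736 bp. RefSeq places the gene's own start farther out than GENCODE, and the model begins 1.27 kb upstream of that. It lacks the annotated start codon and covers 88.5% of the coding sequence. In bovine GTF2A1L had 3 models from the known start, with 1 exact match of 9 exons and 1347 bp and 2 models that leave out 1 and 3 inner exons, of 320 and 461 bp. Gtf2a2, the small TFIIA subunit, had exact matches alone, 3 in mouse and 2 in bovine.

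Some models began with a first exon outside the annotation. An exon was called unannotated when it overlapped no annotated exon on its strand, in a model that shares a splice site with the annotation. In mouse 9 of 79 members had such a first exon, against 16% of all named genes, and 4 of 79 had one that began upstream of the gene, against 5.64%. Bovine structures were compared with the library's exact matches, so 16 of the 77 bovine members, which have none, could not be called. Of the other 61, 10 had an unannotated first exon, against 15.6% of the 8756 bovine genes with an exact match, and 7 had one upstream, against 7.56%. The exact 95% interval of each of these 4 shares includes its background, so the members as a group do not stand apart here.

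Gtf2e1, the large subunit of TFIIE, had the upstream start farthest from its gene. Both of its exact matches begin at chr16:37539789 on the minus strand (mm10), and another model begins 47.2 kb upstream, at chr16:37586994, with an unannotated first exon of 527 bp. That exon is spliced to the annotated second exon, which holds the start codon, so the model of 3474 bp keeps the start codon. The new start lies within the span of the gene Hgd in RefSeq, and that of Taf8 within the span of Ccnd3. Taf8, which pairs with Taf10 in TFIID, had 8 mouse models: 3 exact matches, 3 models from an unannotated first exon of 342 bp that lies 18.2 kb upstream, and 2 others. The 3 upstream models share that first exon and its splice to the annotated second exon, differ at the 3′ end, and lack the annotated start codon. In Taf5l, the SAGA paralog of Taf5, 2 models share a start 9.59 kb inside the gene and keep the annotated start codon, which lies in the exon they join. The exon starts joined by unannotated first exons in Gtf2e1, Taf5l, Taf8 and Gtf2a1l are printed because they show what each new exon is spliced to. Each is the first 30 bases of the joined exon in GENCODE transcripts (mm10), 5′ to 3′, with the annotated start codon in capitals where it lies within them:
Gtf2e1, chr16:37536164-37536193, minus strand: ttgaaggtgaagcttcctgttgaagATGgc
Taf5l, chr8:124009804-124009833, minus strand: gtcATGaaacgagtgcgcacggagcaggtt
Taf8, chr17:47501411-47501440, minus strand: agaccgggaagtaagcaatccactaaccct
Gtf2a1l, chr17:88671194-88671223, plus strand: cccaaactctaccagtctgtaattgaagat
The printed Gtf2e1 and Taf5l exons carry the start codon at bases 26 and 4, and the windows of Taf8 and Gtf2a1l hold no annotated start codon. In Taf6, 2 models begin at unannotated first exons 2.36 and 2.45 kb inside the gene and keep the start codon, and in Med13 1 model of 14 exons begins 68.2 kb inside.

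**Figure D2:**
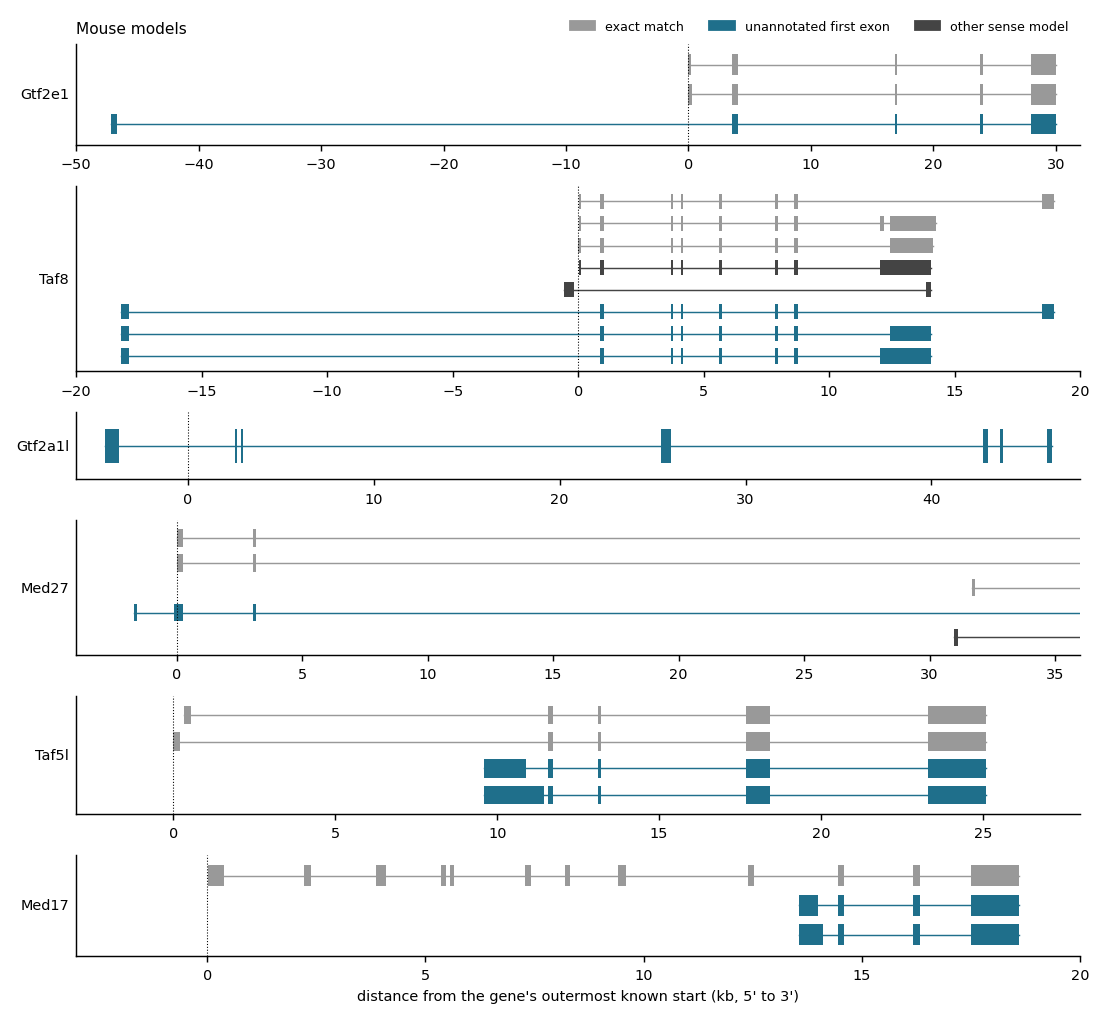
Mouse models of 6 members drawn 5′ to 3′, with boxes for exons (given a minimum width so that short ones are visible) and distance in kb from the gene's outermost known start at 0 (dotted line). Blue models begin with an unannotated first exon: 47.2 kb upstream in Gtf2e1, 18.2 kb in Taf8, 4.43 kb in Gtf2a1l and 1.71 kb in Med27, and inside the gene in Taf5l and Med17; the Med27 panel shows the 5′ part of the gene.

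Med27, a Mediator subunit at the tail, began 1.71 kb upstream in 1 of its 5 mouse models. Its first exon is 115 bp long and is spliced to a second exon that begins 123 bp before the outermost known start and runs through the annotated first exon. The model keeps both annotated start codons and all 8 exons of the exact match with most exons, the first of them lengthened. A first exon of 115 bp was the most common length among mouse models with an unannotated first exon, found in 116 models of the whole library, followed by 123 bp with 46. In all, 6 of the 14 mouse member models with an unannotated first exon kept the start codon of the longest coding sequence, in Gtf2e1, Med27, Taf5l and Taf6. The other models, in Gtf2a1l, Gtf2h3, Med13, Med17 and Taf8, lacked it. The 14 models come from 9 genes, and some share a start. The same share over all mouse models with an unannotated first exon was not counted.

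In bovine the upstream distances were shorter, and all distances are measured against the library's exact matches alone. A TAF5L model of 7 exons that runs to the known end began 6.36 kb upstream with an unannotated first exon of 107 bp, and a 3-exon TAF5L model that shares no splice site with the exact matches began 6.92 kb upstream. POLR2B began 0.61 kb upstream with a first exon of 452 bp, GTF2H1 0.35 kb upstream with 177 bp, and TAF10 0.31 kb upstream with 82 bp. MED12L began 0.45 kb upstream with 207 bp. In GTF2E2, MED24 and MED15 the unannotated first exon lay 0.40, 0.08 and 28.2 kb inside the gene. The MED24 exon directly adjoins the first exon of the exact matches, and another MED24 model has a first exon that overlaps both. It is thus unannotated by the overlap rule without being a separate exon. The GTF2H1 exon likewise lies within the first exon, of 520 bp, of another GTF2H1 model, which also holds the first exon of the exact match. TAF4B, the gonad-enriched paralog of TAF4, had 8 models of which 6 began with an unannotated first exon. Of these 6, 5 share a start 493 bp upstream of the exact match and 1 starts 10.4 kb inside the gene. TAF3, the TFIID subunit with a PHD finger that binds methylated histone H3, had 6 models, 4 of them with an unannotated first exon. In TAF3, 2 such starts lay 53 and 314 bp upstream, and 2 lay 64.9 and 65.2 kb inside the gene, ahead of a long inner exon of the exact match. Both upstream TAF3 exons lie within the first exon, of 682 bp, of another TAF3 model, which also holds the first exon of the exact match. They too are unannotated by the overlap rule without being clearly separate exons. In mouse Taf3 and Taf4b each had 1 model, an exact match of 7 exons and 4805 bp and of 15 exons and 4199 bp.

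**Figure D3:**
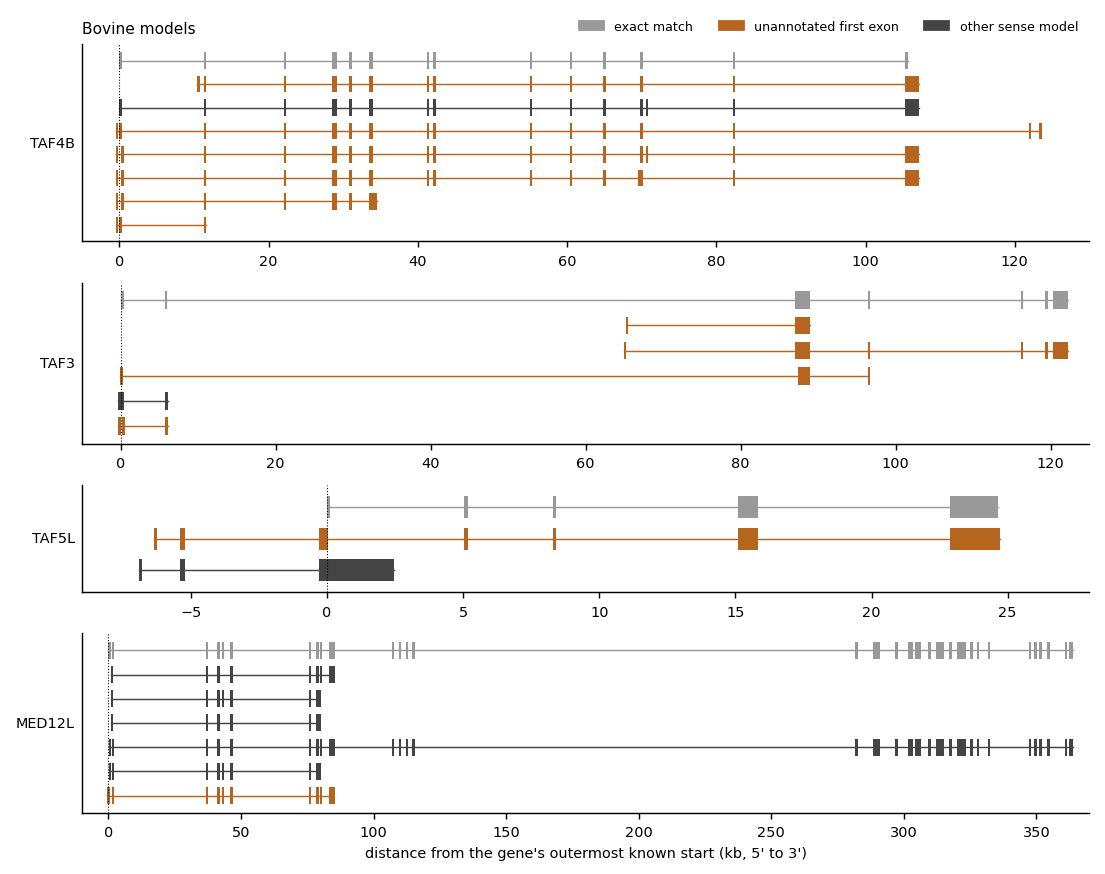
Bovine models of TAF4B, TAF3, TAF5L and MED12L, drawn as exons (given a minimum width) against distance in kb from the outermost start of the library's exact matches at 0 (dotted line). In TAF4B 6 of 8 models and in TAF3 4 of 6 begin with an unannotated first exon (orange), and in MED12L 2 of 7 models run the whole length of the gene.

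The TFIID subunits had more models than the Pol II subunits. Their 12 assembled mouse genes had 42 models, a mean of 3.5, and their 13 bovine genes had 47, a mean of 3.62. Taf8 had 8 models in each species, and Taf6 had 7 in mouse and 5 in bovine. Taf12, a histone-fold subunit that pairs with Taf4, had 5 models in mouse, 3 of them exact, and 6 in bovine, 5 of them exact. Taf11 had 5 models in mouse, 4 of them exact, and 2 exact matches in bovine. Of the 8 bovine TAF8 models, 4 used known splice sites in a new combination. An exon of 99 bp, a multiple of 3, was left out in 3 of them, and 2 exons of 162 bp together in the other. New combinations of known splice sites were found in 13 of 61 bovine members with an exact match, against 16% of bovine genes with one, and in 4 of 79 mouse members, against 8.84%. Counted once each, 7 of 17 distinct junctions of this kind in bovine members left out a number of bases divisible by 3 (41.2%), beside 34.9% over all named bovine genes. In mouse members it was 2 of 4, beside 39.1%.

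Taf1 and Taf4 had no exact match in either species. Taf1, the TFIID subunit with the longest coding sequence, had 3 mouse models and no exact match: an 8-exon model of the 5′ end, a 2-exon model from the same start to the 3′ end, and a 15-exon model of the 3′ part with 1 retained intron. Together they covered 56.4% of its 5706 bp of coding sequence, with both the start and the stop codon. The 3 bovine TAF1 models had 3, 14 and 12 exons and no exact match. Taf4 had 3 mouse models of 4, 12 and 15 exons, which covered 62.5% of its coding sequence of 3126 bp, and 2 bovine models of 15 exons, none exact. Taf2 had 1 exact match of 26 exons and 5033 bp in mouse and 5 models without one in bovine, the longest with 24 exons.

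Mouse Taf10 had no model on its strand. The annotated gene lies at chr7:105739393-105744361 on the minus strand (mm10), and in GENCODE its 3′ part overlaps Ilk on the plus strand. RefSeq gives a shorter Taf10, from 105742894 to 105744375. Both flanks were assembled: Ilk in 2 models that end at 105742925, Tpp1 in 2 models from 105744811, and Rrp8 in 2 models. In bovine TAF10 had an exact match of 5 exons and 1341 bp and a 5-exon model that began upstream. Taf9b, a paralog of Taf9, had 1 exact match of 7 exons in each species, and Taf9 itself had 2 exact matches in mouse and 1 in bovine. Taf7 had 1 model in mouse and 2 in bovine, each library with an exact match, and Taf7l an exact match of 13 exons and 1935 bp in mouse.

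The TAF names of other complexes held the largest counts. Taf1a to Taf1d belong to SL1, the promoter factor of RNA polymerase I, which makes ribosomal RNA. Taf1d had 9 models in mouse, 8 of them exact, and 1 in bovine. Of the 9, 6 carried a noncoding reference accession. The annotation places 8 genes of small nucleolar RNAs, which guide the modification of ribosomal RNA, in the 3′ part of the mouse gene, and 5 models reach past the first of them. TAF1A showed the opposite balance, with 11 models in bovine, 9 of them exact, and 4 in mouse, 3 of them exact. The exact bovine TAF1A matches had 11 or 12 exons and 1749 to 2262 bp. Taf1b had 5 models in each species, while Taf1c had 1 exact match of 15 exons in mouse and 2 partial models of 1 and 4 exons in bovine. Taf5l and Taf6l, of SAGA, had 4 and 2 models in mouse and 3 and 3 in bovine. Taf15, an RNA-binding protein of the FET family, had 2 exact matches among 3 mouse models and a 15-exon partial model in bovine.

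Mediator contributed 77 models in each library, with 55 exact in mouse and 29 in bovine. In mouse all 7 head, 9 middle and 10 tail genes had an exact match. In bovine it was 5 of 6 assembled head genes, 6 of 9 middle genes and 7 of 10 tail genes. Med24, a tail subunit, had 7 mouse models, 6 of them exact with 26 or 27 exons, and 4 bovine models with 2 exact ones of 26 exons. Med25 had 5 exact matches in mouse and 4 partial models of 2 to 8 exons in bovine. Med23 had 2 exact matches of 29 and 30 exons in mouse and a 14-exon partial model in bovine. Med14, the backbone that joins the modules, had an exact match of 31 exons and 6509 bp in mouse, beside 3 models with an unannotated last exon, and in bovine 3 partial models of 1, 21 and 11 exons. An unannotated last exon was seen in 4 of 79 mouse members, against 6.05%, and in 5 of 61 bovine members with an exact match, against 12.7%.

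Med1, the subunit that nuclear receptors bind, differed in the part assembled. Its 6 mouse models all began at the known start, and its 4 exact matches reached 2822 bp, so 53.1% of its longest coding sequence of 4725 bp was covered. The 5 bovine MED1 models also shared 1 start and none was exact, but they reached 7289 bp. Med17, which anchors the head, had 1 exact match of 12 exons in mouse and 2 models from an unannotated first exon 13.6 kb inside the gene, which hold its 3 last exons. Med26, which links Mediator to elongation factors, had 2 exact matches in mouse and 1 model of 2 exons in bovine. Med19 had 1 exact match of 5 exons in mouse and 2 models without one in bovine.

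No mouse gene of the kinase module had an exact match. The coding sequences of its 4 genes are long, 6513 to 6648 bp. Of all mouse genes at or above 4000 bp, 28.6% had an exact match. Med12 activates Cdk8 in this module and Med13 attaches it to the core of Mediator, and Med12l and Med13l are their paralogs. Mouse Med12 had models of 20 exons and 2843 bp and of 6 exons and 1143 bp, covering 48.6% of its 6570 bp of coding sequence. Med12l had 1 model of 2 exons over the 3′ end, which touched 0.760% of its coding sequence. Med13 had 3 overlapping models of 27, 14 and 8 exons, which together covered 96.8%. Med13l had 1 model of 15 exons and 5611 bp, which covered 45.2%. In bovine 1 of the 4 genes had an exact match: MED12L, with 45 exons and 8575 bp, the member model with most exons. A 44-exon MED12L model left out an exon of 33 bp, as did 2 shorter ones. Bovine MED12, MED13 and MED13L had 3, 2 and 4 models without an exact match.

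**Figure D4:**
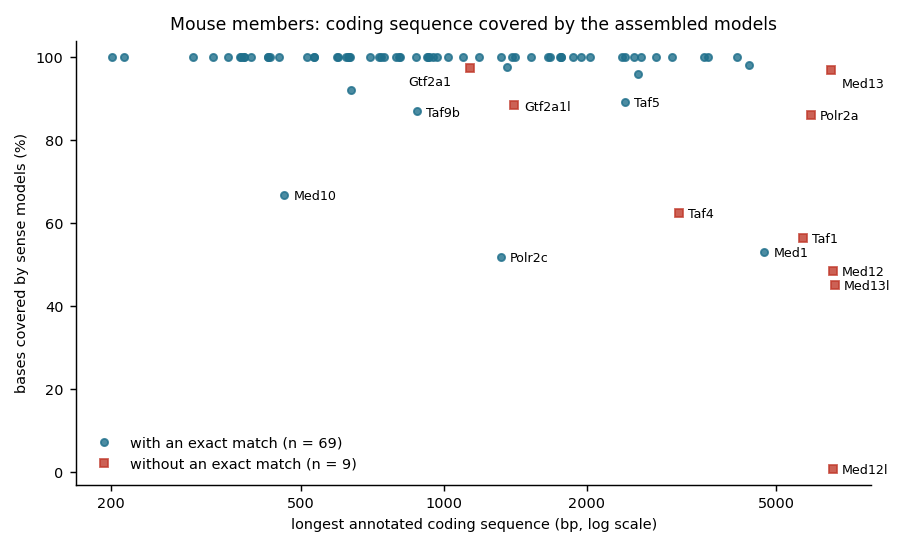
Share of the longest annotated coding sequence covered by sense models (%) against its length (bp, log scale) for 78 mouse members, with circles for members with an exact match and squares for those without. The circles lie mostly at 100%, and 6 of the 9 squares stand at the right, where the coding sequence is 4000 bp or longer.

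In mouse, members with the longest coding sequences had the fewest exact matches. Of 39 members under 1000 bp, 39 had an exact match, beside 88.6% of all genes in that range. Of 9 members at or above 4000 bp, 3 did, Med1, Med14 and Med23 (33.3%), beside 28.6% of all genes that long. The 9 members without an exact match had a median coding length of 5910 bp and the 69 with one a median of 924 bp. In the ranges between, 16 of 18 members from 1000 bp and 11 of 12 from 2000 bp had one. These shares were 88.9% and 91.7%, beside 79.7% and 64.3% of all genes. The ranges hold few members, so a fall below 4000 bp cannot be judged. The plot of coding cover against length shows Gtf2a1, Gtf2a1l and Taf4 as the members without an exact match below 4000 bp. Stop codons were in a model of 75 of 78 members (96.2%), beside 93.5% of all mouse coding genes with a sense model. Start codons were in a model of 66 (84.6%), beside 78.6%, so fewer start than stop codons were found among all genes too. All 9 members without an exact match had the stop codon while 2 had the start codon. Polr2c and Med10, at 51.9% and 66.9%, have a longest annotated coding sequence of 10 and 3 exons that is not the structure of their exact matches of 9 and 4 exons. The whole coding sequence was covered in 60 of 78 members (76.9%), beside 68.6% of 11451 coding genes. No bovine annotation was used, so this measure is for mouse alone.

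Members had an exact match more often than the background. In mouse 70 of 79 members had one, 88.6% (79.5% to 94.7%, exact Clopper-Pearson 95% interval, counting error only), against 72.5% of all named genes. In bovine 61 of 77 had one, 79.2% (68.5% to 87.6%), against 65.5%. Over models, 140 of 204 in mouse were exact, 68.6% (61.8% to 74.9%), beside 55.4% of all sense models. In bovine it was 100 of 211, 47.4% (40.5% to 54.4%), beside 44.0%, a difference within the interval. Members with models but no exact match were 9 in mouse, against 27.5%, and 16 in bovine, against 34.5%. Retained known introns were found in 5 mouse members, against 7.23%, and in 2 of 61 bovine members with an exact match, against 4.84%. A splice site outside the annotation was found in 24 mouse members, against 31.2%, and in 22 of 61 bovine members with an exact match, against 38.8%. Of the 140 exact mouse models, 107 matched a curated coding reference transcript, and of the 100 bovine ones, 55.

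**Figure D5:**
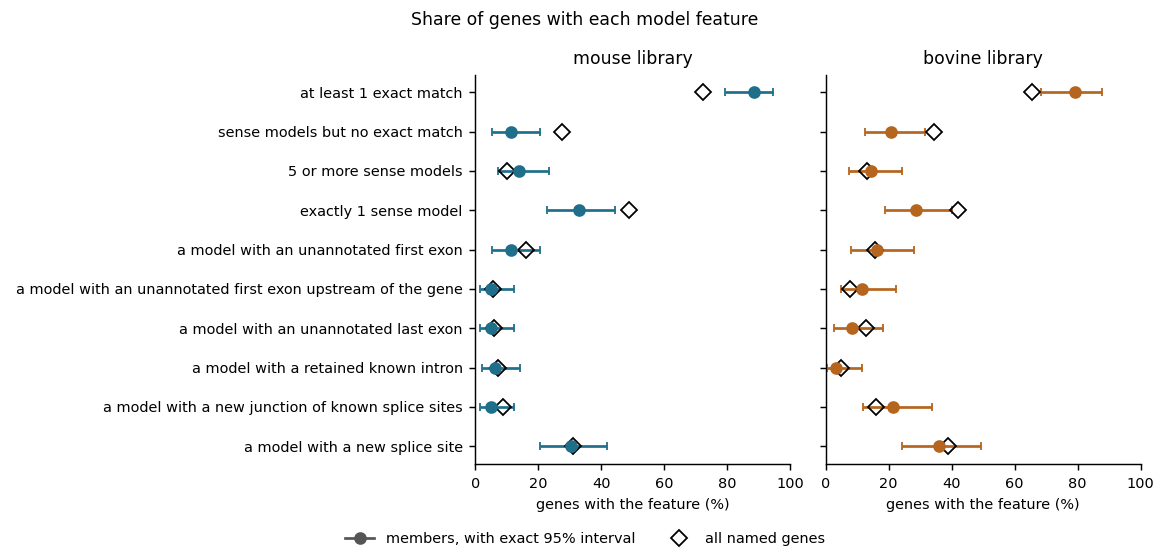
Share of members with each model feature (circles, with exact 95% intervals) and of all named genes (diamonds), in % of genes, in each library; bovine structure features are over genes with an exact match. Members lie above all genes for an exact match and below them for exactly 1 model in both libraries, and near them for unannotated first and last exons and retained introns.

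Most members with an exact match in both species had the same exon number there. Of the 76 members found in both libraries, 56 had an exact match in both, 11 in mouse alone, 4 in bovine alone and 5 in neither. The 4 in bovine alone were Polr2a, Gtf2a1, Gtf2a1l and Med12l, and the 5 in neither were Taf1, Taf4, Med12, Med13 and Med13l. Of the 56, 51 shared an exon number among their exact matches (91.1%), beside 91.7% of 5721 genes with an exact match in both, and 43 had the same largest one (76.8%), beside 73.7%. Both shares were near those of all genes, and since an exact match takes its exons from the reference, they also describe the 2 annotations. Taf1d had the widest gap, with 12 exons in mouse and 6 in bovine. The mouse matches of 12 exons were to noncoding reference transcripts and the bovine match was to a coding one. Mouse Taf1d matches to curated coding transcripts had 7 and 6 exons. Mouse had more models for 30 members, bovine for 27, and 19 had the same number. Spearman's rho of the 2 counts was 0.32 across these 76 genes and 0.25 across 8466 shared symbols, a description across genes, which are not independent.

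Annotated promoters were available from RefSeq (GRCm38.p6) for 68 of the 79 mouse members, as 83 windows from 250 bases before to 50 after a start. The ETS core CCGGAAG was found on either strand in 22.9% of member promoters, beside 12.8% of 13296 promoters of genes with a sense model and 6.91% of all 32851. The TATA box TATAAA was found in 14.5%, beside 7.22% and 12.4%, and the GC box GGGCGG in 59.0%, beside 52.4% and 32.7%. CCAAT was found in 33.7%, beside 36.1% and 33.8%, and the CRE TGACGTCA in 3.61%, beside 2.40% and 1.55%. The NRF1 palindrome was in 0 of the 83, beside 1.56% and 0.782%. The median observed to expected CpG ratio was 0.817 in member promoters, 0.682 in those of genes with a sense model and 0.374 over all. The 100 bases before an annotated start of Gtf2e1, Taf8 and Gtf2a1l are printed as promoters that the upstream models of these genes do not begin at. For Gtf2a1l, RefSeq places the gene's own start farther out, at chr17:88665493, and the bases before that start are not printed. CCAAT and GC boxes are in capitals in either orientation:
Gtf2e1, chr16:37539790-37539889, minus strand: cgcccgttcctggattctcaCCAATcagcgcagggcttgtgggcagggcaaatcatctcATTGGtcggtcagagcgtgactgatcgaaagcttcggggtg
Taf8, chr17:47502292-47502391, minus strand: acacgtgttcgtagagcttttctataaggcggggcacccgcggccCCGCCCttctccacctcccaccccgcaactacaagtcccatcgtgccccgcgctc
Gtf2a1l, chr17:88668560-88668659, plus strand: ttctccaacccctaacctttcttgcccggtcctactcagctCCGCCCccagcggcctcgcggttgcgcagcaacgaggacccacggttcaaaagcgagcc
Gtf2e1 has a CCAAT box in each orientation, while Taf8 and Gtf2a1l have a GC box in the reverse orientation. A match is a description of letters and says nothing of a factor. Exact member models began at the RefSeq start to the base in 86 of 140 cases (61.4%), beside 53.1% over all exact mouse models.

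Of 34 other genes of initiation and elongation, 32 had a sense model in mouse and 34 in bovine. Here too, the share over all annotated genes was not counted. The 3 genes of the TBP family, Tbp, Tbpl1 and the oocyte form Tbpl2, had 1 model each in mouse and 2, 1 and 1 in bovine. Mouse Cdk8, the kinase of the Mediator module whose large subunits lacked exact matches, had 11 models with 3 exact ones, and Ccnc, its cyclin, had 4 exact matches. In bovine CDK8 had 6 models and CCNC 3. Ercc2, a helicase of TFIIH, and Tcea2, an elongation factor, had no mouse model and 1 bovine model each. Ccnh, the cyclin of the TFIIH kinase, had 3 models in mouse and 10 in bovine, and Mnat1, the assembly factor of that kinase, 7 and 2. Larp7, which holds the 7SK RNA that restrains P-TEFb, had 1 and 7. Every gene of the P-TEFb, NELF, DSIF and PAF1 lists was found in both libraries.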

How the data were processed

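The deposited files hold 1 set of StringTie transcript models per library (exon start and end positions, with gene name, closest reference transcript and its class code, per the file headers). The builds were mm10 and bosTau9, per the submitters' processing notes. The aligner was not given in the sources used here. No count or abundance is in the files. Sense models had class code =, c, k, m, n, j or o. Structures were compared with GENCODE M21 and the library's exact matches in mouse, and with exact matches alone in bovine, where only genes with one could be called. Intron chains of 68.6% of exact member models and 68.4% of all exact multi-exon mouse models were in GENCODE. The classification was run on simulated models of isolated genes, each with at most 1 built-in change. These held no overlapping genes, no starts inside a gene and no incomplete annotation, so they do not show how it does in such cases. Shares carry Clopper-Pearson 95% intervals (scipy 1.17.1, Python 3.11.15) that treat models as independent. Structures were described for the 10 members with most models per library, members with an upstream unannotated first exon, found in 1 library or without an exact match, and paralog pairs. Other structures named were chosen after their values were seen, as were coding cover and divisibility by 3. The members and lists were chosen with earlier results of these data known. Alternatives changed which models, starts and names count. Truncated cDNA would move starts downstream, and reference-guided assembly could take ends from the reference.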

Additional observations from a re-analysis of the deposited data

Results flagged for a closer look

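Beside the sense models, 12 mouse models carried the name of a member without being sense models of it, a signal outside the counts above. They made up 5.56% of 216 models named after members, beside 13.9% of 36427 named mouse models. Of the 12, 8 lay within an intron and 7 had 1 exon, and they touched 10 genes. Taf1 had 3, all on its own strand. In bovine 2 of 213 models were of this kind (0.939%), in MED13L and POLR2A, beside 7.81% of all named models.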

How the results depend on the processing

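No paired analysis was possible because each species has 1 library. Of 52 alternative values, 46 stayed within the interval of the share or within 1.5 times the count. Not all of the 46 could move. An unannotated first exon has an unannotated donor by definition, so requiring one could change nothing. Counting contained and extended models and starts within 100 bp as known raised the exact share of member models to 82.35% in mouse and 73.93% in bovine, and 1 vote per gene raised it to 88.61% and 79.22%. With starts upstream of the gene alone, mouse members with an unannotated first exon fell to 4. With exact matches alone, the bovine Mediator genes found fell to 19. These follow from how each alternative is built. The depth is unknown, so its effect on missing genes and starts was not tested.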

Other observations

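Several members lie close to each other in both genomes. With a limit of 500 kb between starts, chosen after seeing the data, 7 pairs of members were neighbours in mouse and 8 in bovine, and 7 were the same: Gtf2h2 and Taf9, Med12 and Taf1, Med16 and Polr2e, Med17 and Taf1d, Med18 and Taf12, Med20 and Taf8, and Polr2g and Taf6l. Polr2g and Taf6l lay 12.2 kb apart in mouse and 5.87 kb in bovine, and Med16 and Polr2e 130.7 and 147.2 kb. Med1 and Med24 were 536.1 kb apart in mouse and 490.3 kb in bovine, which the limit separates. Pairs were not counted for other genes, so whether members lie closer together than other genes was not tested.

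Med17 and Taf1d, which begin on opposite strands, lay 26.3 kb apart in mouse. In bovine 1 MED17 model of 8 exons and 1469 bp began 74 bp from the TAF1D start, at chr29:1080739 (bosTau9). Its first exon of 116 bp overlaps the first exon of a neighbouring gene on the same strand (C29H11orf54, an exact match of 9 exons), and the model runs past the end of the other MED17 model, to 998054. This model was singled out after its values were seen.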
